A study of Mus musculus with 16 samples.

Results

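The lung endothelium of mice with a primary tumour growing under the skin was set against that of wild-type mice. The members are the single cells whose names carry day 15 (d15, primary tumour) or day 0 (d0, wild-type), 1507 and 2671 of the 9036 cells in the deposited table. All mice were female C57BL/6N. Those of d15 carried a subcutaneous graft of LLC (Lewis Lung Carcinoma) cells, a transplantable tumour line of the same strain background, and those of d0 are labelled wild-type. Endothelial cells (EC) were sorted from lung by flow cytometry, and 4 libraries per day were made with a 10x Genomics 3′ kit, which tags each captured transcript with a unique molecular identifier (UMI). Other days of the study, d22 (tumour resected) and d36 (metastases), appear here as values beside named genes. Cell names give the day but not the library, so each day is 1 pooled sample, no spread between animals or libraries was measured, and no difference was tested. How many animals stood behind each day, their age and the markers of the sort are not stated in the labels.

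EC line the blood and lymph vessels and differ along the vascular tree. In the lung alveolus, general capillary cells (Gpihbp1, Plvap) and wide, thin aerocytes (Car4, Ednrb) form the gas-exchange surface, while arterial and venous cells line the larger vessels. Lung EC display MHC class II molecules and receive blood-borne signals such as interleukin-6, which acts through the transcription factor STAT3, and xenobiotics, which act through the aryl hydrocarbon receptor.

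After cells were screened for markers of other cell types, 2642 EC remained at d0 and 1493 at d15. In these EC, 12 pan-endothelial markers were summed, with none at 0. The sum was 16556 CPM (UMIs of the gene scaled to a common total of 1000000) at d0 and 19372 CPM at d15. The screen used this list and those of other cell types. These sums thus describe the cells kept and do not test the label of EC. Pan-leukocyte markers summed to 2.12 and 1.44 CPM, with 2 of 7 at 0 in each day (Ptprc and Cd53 at d0, Cd52 and Cd53 at d15). The sums of the other 9 such lists lay between 0.390 and 92.8 CPM at d0 and between 0.575 and 71.2 CPM at d15. Erythroid and platelet markers were 19.5 CPM at d0 and 49.6 CPM at d15, and Sftpc, a gene of alveolar type II cells and here a gauge of free RNA, was 55.5 and 37.8 CPM. Depth moved with the day. EC of d0 held 23089635 UMIs, with a median of 7650.5 UMIs and 1357.5 genes per cell, and EC of d15 held 6951240, with medians of 4192 and 836. The shallowest cell had 2576 UMIs at d0 and 1322 at d15, where 452 cells (30.3%) lay under 2500. For that reason the comparison of d15 with d0 over all EC was repeated with every cell thinned at random to 1300 UMIs, while ratios within classes and of d22 and d36 are from unthinned counts. The 2 days shared 3 cell barcodes. Clustering gave aerocyte-like, arterial-like and venous-like cells and a set of pooled capillary clusters, described near the end, and key genes are also given within these 4 classes.

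Most genes differed little between the days. A gene was counted as measured from 50 CPM in d0 or d15 and 200 UMIs summed across them. Of 3713 such genes, 51.3% had a ratio of d15 to d0 above 1 and 48.7% below it, 66.5% lay within a 1.2-fold ratio, and the median log2 ratio of d15 to d0 was 0.01. A ratio of at least 1.5 was reached upwards by 153 genes (4.12%) and downwards by 82 (2.21%), and these are called past the fold. When cells were thinned, 127 of the higher genes (3.42% of those measured) and 62 of the lower ones (1.67%) were again past the fold. Over the wider set of 8415 genes with at least 10 CPM, 53% lay above 1, 7.28% were past the fold upwards and 5.53% downwards. These shares and those of measured genes are the background for each count of list members below. A ratio of 2 was reached by 42 genes upwards and 11 downwards. The split depended on the scaling: with TMM factors, taken from a trimmed mean of gene ratios, 126 were higher and 120 lower. The higher share of genes past the fold thus moved from 65.1% to 51.2%. In that scaling the median log2 ratio of measured genes moved away from level, from 0.01 to −0.05. Intervals given below are 95% exact binomial intervals that cover counting error only. They treat each UMI as independent and so understate the error of a gene whose UMIs are concentrated in a handful of cells.

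**Figure D1:**
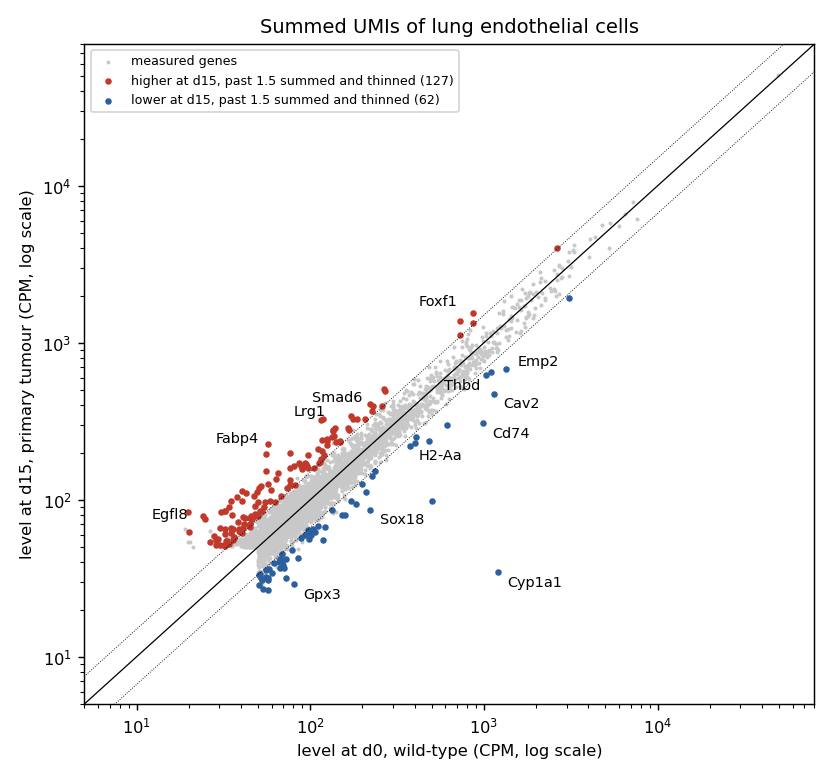
Level of each of 3713 measured genes over EC of d0 (x axis) and d15 (y axis), in CPM on log scales, with the line of equal levels solid and the 1.5-fold lines dotted. Red (127) and blue (62) points were past the fold in summed and thinned counts alike, and Cyp1a1 lies farthest below the line, at 1208 CPM against 34.7 CPM.

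**Figure D2:**
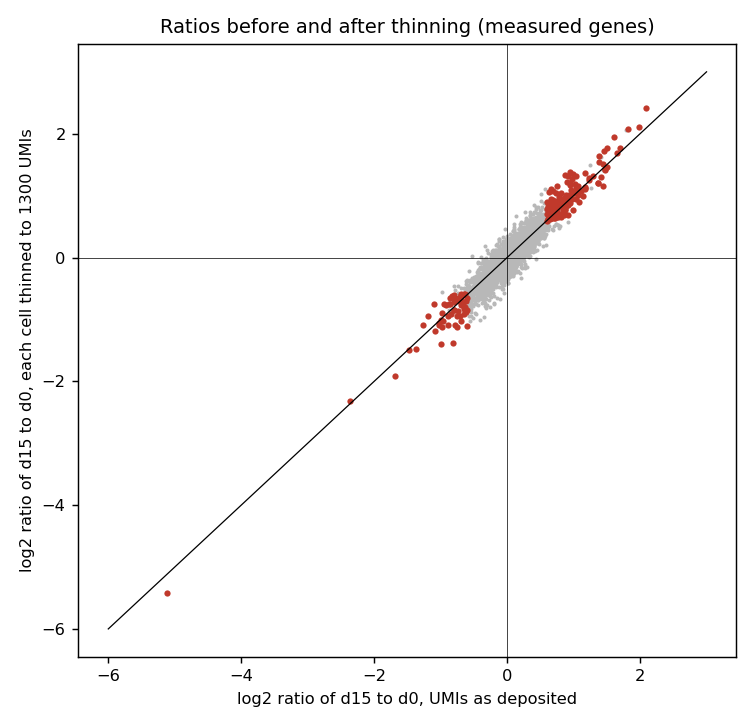
Log2 ratio of d15 to d0 from UMIs as deposited (x axis) and after each cell was thinned to 1300 UMIs (y axis), for measured genes. Red points are the 127 higher and 62 lower genes past the fold in both, and Cyp1a1 lies alone at the lower left.

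Cyp1a1, the cytochrome P450 that metabolises polycyclic xenobiotics and the classic target of the aryl hydrocarbon receptor, had the lowest ratio of all measured genes. It stood at 1208 CPM at d0 and 34.7 CPM at d15, 34.8-fold lower (ratio 0.0287, 0.0252 to 0.0326). Its 27894 UMIs at d0 lay in 1044 cells, and its 241 UMIs at d15 lay in 39 cells. After thinning, 26.5% of d0 cells (24.8 to 28.2) and 1.74% of d15 cells (1.14 to 2.54) held a UMI. Over all EC the d15 share lies under that of Sftpc, which had a UMI in 6.59% of thinned d0 cells and 4.02% of thinned d15 cells. The Cyp1a1 UMIs of d15 were more concentrated, with up to 40 in 1 cell, while the 263 Sftpc UMIs lay in 143 cells with at most 8 in 1. In venous-like cells of d15 the shares were 7.46% for Cyp1a1 and 4.48% for Sftpc, from 67 cells. The low level at d15 was seen in each class of EC. In aerocyte-like cells, the highest of the 4 classes, the level was 2302 CPM at d0 and 66.2 CPM at d15. Pooled capillary clusters had 883 and 26.9 CPM, venous-like cells 700 and 63.5 CPM, and arterial-like cells 82.7 and 3.83 CPM, the last from 43 and 1 UMIs. The receptor itself showed no such difference. Ahr was at 155 CPM at d0 and 157 CPM at d15 (ratio 1.01, 0.944 to 1.08), and its partner Arnt at 17.1 and 19.0 CPM (1.11, 0.907 to 1.36). Tiparp, another target of the receptor, had 26.3 and 32.8 CPM (1.25, 1.07 to 1.45). Of the 10 genes of this pathway, 4 had at least 10 CPM, 3 of them above a ratio of 1, and only Cyp1a1 was past the fold.

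The 150 bases before the RefSeq transcription start of Cyp1a1 are shown because they hold the core letters of the dioxin response element, the motif that the receptor with Arnt is known to bind. They lie at chr9:57697463-57697612 on the plus strand of GRCm38.p6, the same build as mm10. The capitals mark GCGTG, which was searched on both strands and begins 54 bases before the start. The same letters occur in 20.5% of 32851 RefSeq windows of 150 bases, so the match is common.
Cyp1a1: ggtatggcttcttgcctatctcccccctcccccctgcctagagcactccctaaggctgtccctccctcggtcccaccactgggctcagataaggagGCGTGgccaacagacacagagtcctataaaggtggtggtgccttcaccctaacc

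MHC class II genes, which load and present peptides of extracellular origin to CD4 T cells, were lower together. All 6 members with at least 10 CPM lay below 1, with a median log2 ratio of −0.73 (−0.83 thinned) against 0.02 over the 8415 genes with at least 10 CPM, and 5 of 6 were past the fold beside 2.21% of measured genes. Thinned to 2500 UMIs, H2-DMb1 had 0.685, short of the fold. Cd74, the invariant chain that chaperones class II molecules, stood at 992 CPM at d0 and 307 CPM at d15, 3.23-fold lower (ratio 0.310, 0.296 to 0.324, and 0.265 thinned). Among the α and β chains, H2-Aa had 375 and 222 CPM (0.591, 0.559 to 0.624), H2-Eb1 200 and 126 CPM (0.632, 0.588 to 0.680) and H2-Ab1 506 and 375 CPM (0.740, 0.709 to 0.772). The peptide-exchange chains H2-DMa (78.6 and 47.6 CPM, 0.606) and H2-DMb1 (101 and 59.99 CPM, 0.594) lay at a similar distance. Every one of these genes was thus lower, with Cd74 the farthest and H2-Ab1 short of the fold. Ciita, the transactivator of class II genes, had 7.02 and 6.33 CPM (0.902, 0.631 to 1.27), from 162 and 44 UMIs. That interval lies above the ratios of Cd74, H2-Aa, H2-DMa and H2-DMb1 and includes 1 and the ratio of H2-Ab1. Ciita was named after its values had been seen.

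The Cd74 level differed by class. In the pooled capillary clusters it stood at 1456 CPM at d0 and 396 CPM at d15, with a UMI in 42.3% and 14.1% of thinned cells. Within this class, 1 cluster had the most Cd74 (3418 CPM over both days) and Cyp1a1 (2599 CPM). It held 342 cells at d0 (12.9% of EC) and 23 at d15 (1.54%). The other clusters of the class held between 156 and 410 cells at d0 and between 104 and 328 at d15. These clusters were built with both genes among the rest. Lymphatic-like cells had 493 and 428 CPM, from 147 and 36 UMIs. Venous-like cells had 753 and 177 CPM. Aerocyte-like cells had 93.1 and 11.96 CPM, and their shares of cells with a UMI, 7.63% and 2.13%, lay near those of Sftpc in the same cells (5.30% and 3.19%). Arterial-like cells had 82.7 and 7.67 CPM, from 43 and 2 UMIs. Cells of d0 with a Cyp1a1 UMI after thinning (700 of 2642) had more Cd74, 2031 CPM, than the d0 cells without one, 741 CPM. These levels are of thinned counts, as are the next. Over cells without a Cyp1a1 UMI, Cd74 was at 741 CPM at d0 and 289 CPM at d15 (0.390, 0.354 to 0.429). H2-Aa was at 368 and 206 CPM (0.560) and H2-Eb1 at 177 and 134 CPM (0.758, short of the fold). This split of the cells was made after the values of both genes had been seen. Pan-leukocyte markers, given above, were near 0 at both days in the cells kept, which had been screened with these same markers.

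Promoter windows of class II genes are shown because these genes were lower together and are known to share an X box and a Y box, which bind the RFX and NF-Y complexes that recruit Ciita. The RefSeq promoter table used here matched 5 of the 6 genes searched (Cyp1a1 and 5 class II genes), without H2-Ab1. The capitals mark an X-box core (AACNGATG) and a Y-box core (ATTGG, or CCAAT on the other strand), searched on both strands in the 150 bases before the start. Of 32851 windows, 1.14% held the X-box letters, 24.5% the Y-box letters and 0.253% both. The windows of H2-Eb1 (chr17:34305717-34305866, plus strand) and H2-DMb1 (chr17:34153041-34153190, plus strand) held both, with the X-box letters beginning 89 and 92 bases and ATTGG 59 and 61 bases before the start. That of H2-Aa (chr17:34287824-34287973, minus strand) held ATTGG alone, at 48 bases, and neither motif stood before either start of H2-DMa.
H2-Eb1: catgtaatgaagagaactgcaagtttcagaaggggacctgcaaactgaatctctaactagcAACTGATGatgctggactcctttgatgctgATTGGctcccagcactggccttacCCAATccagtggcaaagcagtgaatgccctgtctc
H2-DMb1: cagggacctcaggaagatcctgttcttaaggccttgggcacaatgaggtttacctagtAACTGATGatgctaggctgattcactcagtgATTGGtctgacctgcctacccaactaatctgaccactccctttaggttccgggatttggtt
H2-Aa: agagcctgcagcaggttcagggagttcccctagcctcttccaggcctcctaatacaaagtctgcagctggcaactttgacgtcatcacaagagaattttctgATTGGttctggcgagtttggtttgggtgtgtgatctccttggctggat

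MHC class I and interferon-induced genes differed less. Of 18 class I genes with at least 10 CPM, 14 lay below 1 (median log2 ratio −0.14) and 0 were past the fold. B2m, the light chain of class I molecules, was at 7594 and 6149 CPM (0.810), while H2-T22 (0.742), the immunoproteasome subunit Psmb9 (0.778) and the chaperone Calr (0.797) had the lowest class I ratios among the genes named by rule. The heavy chains H2-K1 (2163 and 2073 CPM, 0.958) and H2-D1 (6511 and 6598 CPM, 1.01), named after their values had been seen, were nearly level. Interferon-induced genes had 23 of 32 members below 1, a median of −0.22 and 1 gene past the fold, the immunity GTPase Irgm1, at 98.1 and 62.4 CPM (0.637, 0.573 to 0.706, and 0.687 in cells of at least 2500 UMIs). The guanylate-binding proteins Gbp3 (0.684) and Gbp4 (0.698) and Ifi203 (0.718) were the next lowest among members with at least 50 CPM. Ifi27l2a, named for venous-like cells, stood at 34.1 and 9.06 CPM (0.266).

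The STAT3 and acute-phase genes stood mostly above 1. Of 18 members with at least 10 CPM, 15 lay above 1 beside 53% of all genes at that level, and the median log2 ratio was 0.44 (0.47 thinned). The 15 include Ackr1, which cannot be read, as given below. Within classes, 12 of 14 lay above 1 in pooled capillary clusters and 14 of 19 in venous-like cells. In aerocyte-like cells 12 of 15 did, and in arterial-like cells 10 of 19, with a median of 0.02. Lrg1, a leucine-rich plasma glycoprotein induced in inflammation that modulates TGF-β signalling in endothelium, was at 136 CPM at d0 and 278 CPM at d15 (ratio 2.05, 1.94 to 2.17, and 2.21 thinned). Bcl3, an atypical IκB protein, had 26.3 and 53.5 CPM (2.03, 1.78 to 2.32). The kinase gene Pim1 had 76.2 and 124.6 CPM (1.63, 1.505 to 1.774), and Stat3 itself 113 and 172 CPM (1.53, 1.43 to 1.64). These 4 were past the fold, beside 4.12% of measured genes, and stayed past it when thinned, though Stat3 was short of it with the classes weighted to the same shares (1.497) and with TMM (1.47). Socs3, the feedback inhibitor of the pathway, had 415 and 579 CPM (1.40, 1.34 to 1.45). Among receptors, Osmr had 18.4 and 36.8 CPM (2.01, 1.71 to 2.35), Lifr 106 and 139 CPM (1.32), and the shared signalling chain Il6st 98.4 and 109 CPM (1.11, 1.02 to 1.21). The kinase Jak1 went the other way, at 159 and 101 CPM (0.637, 0.587 to 0.691, and 0.707 thinned), as did Fgl2 (22.2 and 12.2 CPM, 0.550) and Il1r1 (10.8 and 7.34 CPM, 0.678). Ackr1, a chemokine scavenger of venules, cannot be read: 80 of its 102 UMIs at d15 lay in 1 cell, and its ratio of 2.78 became 0.814 without the top cell of each day.

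The highest Lrg1 level among the 4 classes was that of venous-like cells, with 963 CPM at d0 and 2063 CPM at d15 (ratio 2.14, 1.97 to 2.33) and a UMI in 32.5% and 53.7% of thinned cells (intervals 25.1 to 40.5 and 41.1 to 66.0). In the pooled capillary clusters it was 92.5 and 179 CPM (1.94, 1.78 to 2.12), with 5.75% and 8.98% of thinned cells. Sftpc in the same clusters had 6.70% and 4.13% of thinned cells, at 62.0 and 41.1 CPM. Over all EC of d0, Lrg1 had up to 136 UMIs in 1 cell and Sftpc at most 9. How much of the Lrg1 in these clusters is free RNA was not tested. Aerocyte-like cells had 40.0 and 63.0 CPM (1.57, 1.21 to 2.04), and arterial-like cells 21.1 and 34.5 CPM, from 11 and 9 UMIs. Without the top cell of each day the overall ratio of unthinned counts was 1.96. In thinned counts of cells without a Cyp1a1 UMI the Lrg1 ratio was 2.83 (2.41 to 3.34), beside 2.21 over all thinned EC. Pim1 did not have 1 direction: its ratio was 1.75 in pooled capillary, 1.65 in aerocyte-like and 1.77 in arterial-like cells, but 0.600 in venous-like cells, from 150 and 26 UMIs, a difference between classes that was not tested. Stat3 was above 1 in all 4 classes, from 1.39 in aerocyte-like to 2.26 in arterial-like cells.

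Notch pathway genes stood mostly above 1, and 3 of 8 measured members were past the fold upwards, beside 4.12% of measured genes. Above 1 lay all 12 members with at least 10 CPM, beside 53% of all genes at that level. Their median was a log2 ratio of 0.48 (0.52 thinned). Within classes, 11 of 11 lay above 1 in pooled capillary clusters, 9 of 11 in venous-like, 7 of 11 in aerocyte-like and 7 of 11 in arterial-like cells. Among ligands, Dll1 had 54.7 and 97.0 CPM (1.77, 1.61 to 1.95), Jag1 14.4 and 34.7 CPM (2.40, 2.03 to 2.85) and Dll4 154 and 191 CPM (1.24, 1.16 to 1.32). The receptors Notch1 (70.7 and 97.4 CPM, 1.38) and Notch4 (56.3 and 69.8 CPM, 1.24) differed less. Of the targets, Hes1 had 271 and 413 CPM (1.52, 1.46 to 1.59), the feedback regulator Nrarp 65.7 and 101 CPM (1.54, 1.41 to 1.68) and Hey1 185 and 220 CPM (1.19, and 1.04 thinned). Dll1, Hes1 and Nrarp were past the fold, but Hes1 (1.42) and Nrarp (1.35) were short of it when thinned to 1300 UMIs. Dll1 stayed past it there (1.76) and was short of it when thinned to 2500 UMIs (1.47). Dll1 was at 65.1 and 118 CPM in pooled capillary clusters (1.81, 1.63 to 2.02) and at 178 and 161 CPM in venous-like cells (0.906, 0.688 to 1.18). Hes1 was 1.52 to 1.57 in capillary, aerocyte-like and venous-like cells and 0.464 in arterial-like cells.

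The BMP and TGF-β list, a pathway that keeps endothelium quiescent, had 18 of 21 members above 1, with a median log2 ratio of 0.31 (0.27 thinned). Smad6, an inhibitory SMAD induced by BMP, was the 1 gene past the fold upwards, at 230 and 397 CPM (1.73, 1.65 to 1.81), and its ratio lay between 1.68 and 2.13 in the 4 classes. Its relative Smad7 had 134 and 197 CPM (1.47, 1.38 to 1.56). The target genes Id1 (827 and 1206 CPM, 1.46), Id2 (212 and 304 CPM, 1.43) and Id3 (1733 and 2078 CPM, 1.199) all stood above 1. Of the receptors, Bmpr2 had 254 and 371 CPM (1.46, 1.39 to 1.53), while Acvrl1 (1.11) and the co-receptor Eng (1.14) were nearer 1.

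**Figure D3:**
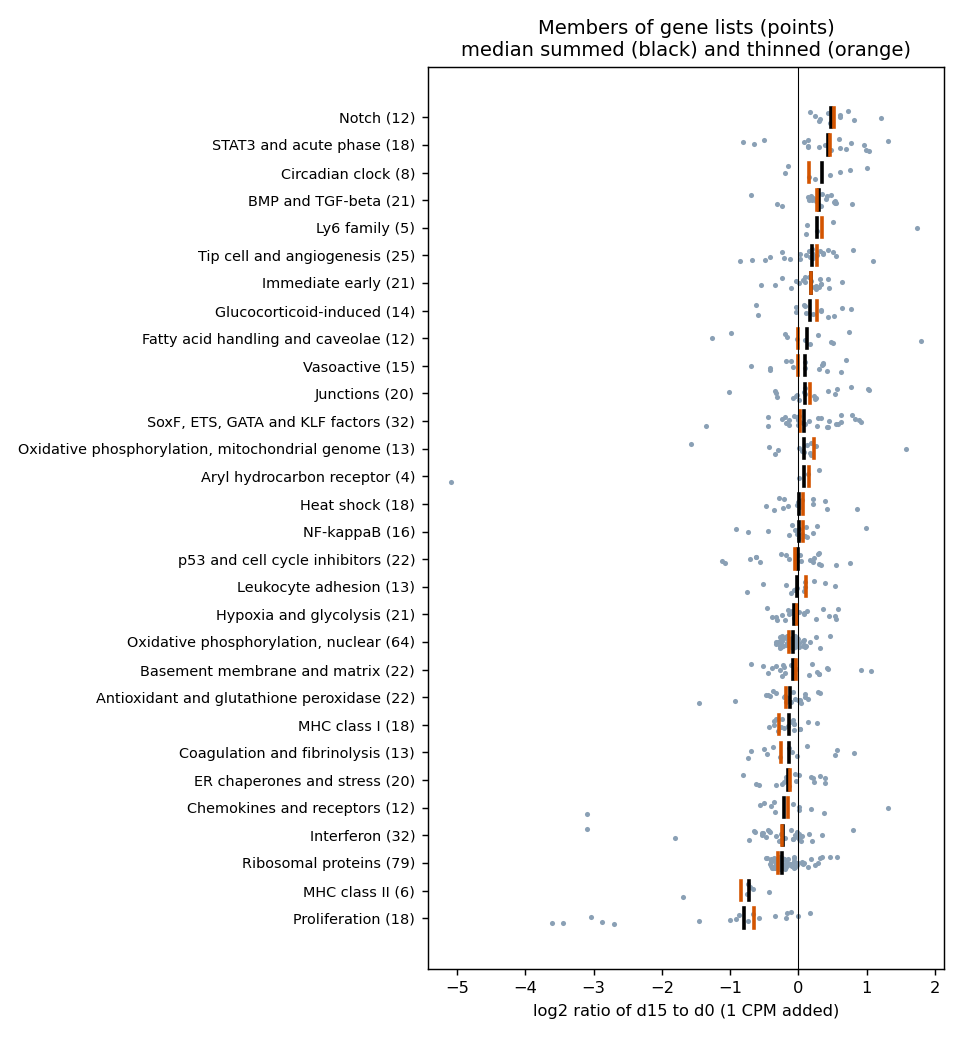
Log2 ratio of d15 to d0 (1 CPM added) of each member with at least 10 CPM (points) in 30 gene lists, whose number of members stands in brackets. Black bars are medians of summed and orange bars of thinned counts, and Notch (0.48) and STAT3 (0.44) lie at the top, MHC class II (−0.73) and proliferation (−0.80) at the bottom.

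Among transcription factors of endothelial identity the list as a whole was near level (median log2 ratio 0.09, 21 of 32 above 1), but single members stood apart. Foxf1, a forkhead factor of lung vessels, was at 861 CPM at d0 and 1537 CPM at d15 (1.79, 1.74 to 1.83, and 1.80 thinned). Its ratio was 2.09 (2.03 to 2.15) in pooled capillary clusters and 1.34 (1.27 to 1.41) in aerocyte-like cells. The shear-responsive factor Klf2 had 2632 and 4045 CPM (1.54, 1.52 to 1.56), Klf10 88.4 and 165 CPM (1.87, 1.73 to 2.01) and Lyl1 29.3 and 56.2 CPM (1.92, 1.69 to 2.18). These 4, of 26 measured members, were past the fold in summed and thinned counts, beside 3.42% of measured genes. Sox18, a SoxF factor of vascular and lymphatic development, was the 1 member past the fold downwards, at 222 and 86.3 CPM, 2.58-fold lower (0.388, 0.356 to 0.422). It was lower in all 4 classes, with ratios from 0.364 to 0.518, and a UMI was found in 22.03% of thinned d0 cells and 7.57% of thinned d15 cells. Its relatives Sox17 (363 and 491 CPM, 1.35) and Sox7 (119 and 159 CPM, 1.34) stood on the other side of 1. Klf2, Sox7 and Sox17 were named after their values had been seen.

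Genes at the interface with blood moved in both directions. Thbd, the thrombin receptor thrombomodulin that starts the anticoagulant protein C pathway, was at 1094 CPM at d0 and 656 CPM at d15 (0.599, 0.581 to 0.619), and between 0.523 and 0.630 in the 4 classes. Plat, the tissue plasminogen activator, had 92.6 and 164 CPM (1.78, 1.65 to 1.91) and Vwf, the platelet-tethering glycoprotein, 165 and 239 CPM (1.45, 1.37 to 1.54). Plat was at 1265 and 1725 CPM in arterial-like cells and at 82.2 and 124 CPM in the pooled capillary clusters, but at 40.7 and 18.2 CPM in venous-like cells (0.446, 0.185 to 0.935, from 62 and 8 UMIs). With the classes weighted to the same shares its ratio was 1.46, short of the fold. Of the 13 members of the coagulation list with at least 10 CPM, 4 were above 1 and 9 below.

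Of the adhesion genes, Vcam1, which binds leukocyte integrins, was lower at 106 and 62.6 CPM (0.591, 0.532 to 0.655). It was a gene of venous-like (1084 and 620 CPM) and arterial-like cells (982 and 414 CPM). Icam1 was near level, at 380 and 402 CPM (1.06, 1.01 to 1.10), and Selp had 10.2 and 9.35 CPM (0.919, 0.687 to 1.21). Sele had 12 UMIs at d0 (0.520 CPM) and 0 at d15, too few for a ratio. Leukocyte adhesion as a list had a median log2 ratio of −0.02, with 6 of 13 above 1 and Vcam1 alone past the fold.

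The angiogenesis list was split. Esm1, a proteoglycan of tip cells, had 30.4 and 65.7 CPM (2.16, 1.92 to 2.44), with 88.4 and 468 CPM in arterial-like cells and 44.5 and 66.5 CPM in the pooled capillary clusters. Efnb2, the arterial ephrin ligand, had 76.4 and 133 CPM (1.75, 1.61 to 1.89, and 1.45 thinned to 2500 UMIs). Apln, the peptide apelin, was lower at 122 and 67.2 CPM (0.550, 0.498 to 0.607), and so was its receptor Aplnr at 227 and 141 CPM (0.621, 0.579 to 0.664). Apln was mainly a gene of aerocyte-like cells, where the levels were 411 and 348 CPM (0.847), and aerocyte-like cells made up a smaller share of EC at d15. With the classes weighted to the same shares the overall ratio of Apln was 0.725, short of the fold. In the pooled capillary clusters Apln had 16.8 and 6.04 CPM (0.361, 0.236 to 0.532). Angpt2 had 37.8 and 26.8 CPM (0.709, 0.602 to 0.831), and its receptor Tek 213 and 218 CPM (1.02, 0.962 to 1.08).

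The lists of caveolae and fatty acid handling, of junctions and of matrix each held 1 gene past the fold downwards, of 8, 15 and 16 measured. Of all measured genes, 2.21% were past it downwards and 4.12% upwards. Upwards, the first list held Fabp4 and the last Mgp, both described below, and the junction list none. Junction genes had 13 of 20 members above 1 (median log2 ratio 0.09) and matrix genes 9 of 22 (−0.08). Cav2, a partner of caveolin-1, stood at 1145 and 475 CPM, 2.41-fold lower (0.414, 0.400 to 0.430), with ratios from 0.309 to 0.522 in the 4 classes. Cav1 itself, named after its values had been seen, was level at 1454 and 1429 CPM (0.982, 0.961 to 1.00). Ctnna1, α-catenin, which links cadherins to actin, had 480 and 236 CPM (0.492, 0.467 to 0.518), against 163 and 129 CPM for β-catenin, Ctnnb1 (0.793), and 301 and 409 CPM for plakoglobin, Jup (1.36). The integrin chain Itgb1 had 405 and 251 CPM (0.620, 0.589 to 0.653). Of the vasoactive genes, the sphingosine-1-phosphate receptor S1pr1, which tightens the endothelial barrier, was higher at 226 and 367 CPM (1.63, 1.55 to 1.71), in each class from 1.60 to 2.02. Npr1, the receptor for atrial natriuretic peptide, had 135 and 82.9 CPM (0.615, 0.562 to 0.673, and 0.709 thinned).

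The list of fatty acid handling and caveolae genes had 7 of 12 members above 1, with 0.13 (−0.008 thinned) as the median of the log2 ratios. Gpihbp1, which anchors lipoprotein lipase, had 1299 and 1843 CPM (1.42, 1.39 to 1.45) and the fatty acid transporter Cd36 1428 and 1985 CPM (1.39, 1.36 to 1.42). Fabp4, a fatty acid-binding protein, had the highest ratio among genes named by rule, at 56.0 and 197 CPM (3.52, 3.26 to 3.80). Its UMIs lay in few cells, 162 at d0 and 56 at d15, with 38.2% of those of d0 and 17.0% of those of d15 in 1 cell. After thinning, 1.78% of d0 cells (1.31 to 2.36) and 2.14% of d15 cells (1.47 to 3.01) held a UMI, so these shares hardly differed. Without the top cell of each day the ratio was 4.72, and without the 2% of cells with the most UMIs it was 2.56. Venous-like cells had 657 and 1872 CPM and held 1001 of the 1292 UMIs of d0.

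Other genes of the highest ratios, besides those given, were Milr1 (19.9 and 62.4 CPM, 3.13), an inhibitory receptor known from mast cells, Egfl8 (24.9 and 76.0 CPM, 3.04), Wdr12 (35.04 and 98.98 CPM, 2.82), a ribosome biogenesis factor, and Ttc21a (55.9 and 152 CPM, 2.71). Lgals4 (2.61), Mto1 (2.44), Cd27 (2.25), Atg7 (2.25) and Wdr89 (2.09) followed. Wdr12 was above 1 in all 4 classes (1.84 to 3.04), and Ttc21a in all but arterial-like cells (0.916). Rnaset2a (2.65) and Psme2b (2.34) are uncertain, since they share up to 80.5% and 68.5% of the 50-base words in their last 300 bases with a near-identical gene. For Rnaset2a that gene is Rnaset2b (2.61), which is uncertain as well, though its own last 300 bases were not searched. Ly6c2 (18.9 and 65.3 CPM, 3.45) is uncertain for the same reason. It shares 18.3% to 33.1% of such words with Ly6c1, which stood at 2125 CPM at d0, and it had too few UMIs after thinning to be measured there.

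Apoe and Mgp, genes of arterial-like and venous-like cells here, had a higher overall level. Apoe, the lipid carrier apolipoprotein E, had 63.7 and 135 CPM (2.12, 1.95 to 2.30), with 279 and 967 CPM in venous-like cells (3.47) but 1265 and 1388 CPM in arterial-like cells and 20.03 and 18.76 CPM in the pooled capillary clusters. Mgp, an inhibitor of calcification and of BMP, had 111 and 211 CPM (1.89, 1.78 to 2.02), with 2891 and 4217 CPM in arterial-like cells. With the classes weighted to the same shares its ratio was 1.43, and over all cells in the table, other types included, it was 1.14.

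Besides the genes already given, the lowest ratios belonged to Gpx3, an extracellular glutathione peroxidase, at 80.7 and 28.9 CPM, 2.79-fold lower (0.358, 0.308 to 0.414), Lbr, the lamin B receptor (72.5 and 31.8 CPM, 0.439), Sh3tc1 (0.466) and Cdkn2b, an inhibitor of cyclin-dependent kinases (118 and 55.8 CPM, 0.472). With the classes weighted to the same shares Gpx3 had 0.599. Emp2, a tetraspan membrane protein, had 1348 and 678 CPM (0.503, 0.488 to 0.519). It is chiefly a gene of aerocyte-like cells, where it had 4274 and 3345 CPM (0.783), while the pooled capillary clusters had 268 and 77.8 CPM (0.290, 0.260 to 0.323). Antxr2 (0.503), Nptn (0.506), Selt (0.509), Phlda1 (0.513) and Ddb1 (0.518) completed the lowest 15.

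Proliferation genes were the lowest list, with 17 of 18 members below 1 and a median log2 ratio of −0.80, but most are rare in these cells. With members of at least 50 CPM the median was −0.16. Hmgb2, a chromatin protein of dividing cells, had 152 and 80.3 CPM (0.529, 0.482 to 0.578) and Stmn1, a microtubule regulator, 764 and 510 CPM (0.668). Birc5 had 339 UMIs in 38 cells at d0 and 2 UMIs in 1 cell at d15, and Top2a 388 UMIs in 36 cells and 12 UMIs in 3 cells, both named after their values had been seen. Ribosomal protein genes lay slightly low as a block, with 67 of 79 below 1 (median −0.25, and −0.30 thinned), none past the fold. Nuclear genes of oxidative phosphorylation had 52 of 64 below 1 (median −0.08). Genes of the mitochondrial genome were split: mt-Co3 had 3265 and 3889 CPM (1.19) and mt-Co2 1919 and 1429 CPM (0.744), while the median share of mitochondrial UMIs per cell was 1.88% and 1.96%.

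Early response genes, which also react to tissue dissociation, stood slightly high, with 16 of 21 above 1 and a median log2 ratio of 0.19. Dusp1, a phosphatase of MAP kinases that glucocorticoids also induce, was the 1 gene past the fold, at 860 and 1341 CPM (1.56, 1.52 to 1.60). Junb (1926 and 2380 CPM, 1.24) and Ier2 (1.26) were higher, and Egr1 (331 and 260 CPM, 0.787) and Atf3 (112 and 76.8 CPM, 0.685) lower. Glucocorticoid-induced genes had 10 of 14 above 1 (median 0.17), with Sgk1 at 486 and 697 CPM (1.43) and Tsc22d3 at 170 and 230 CPM (1.36). NF-κB genes were level (median 0.01, 9 of 16 above 1), and Bcl3, held by both this list and the STAT3 list, was their 1 gene past the fold.

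Classes of EC were rebuilt by clustering the thinned cells of both days together, and a name is given only from marker genes. Aerocyte-like cells were 472 of 2642 EC at d0 (17.9%, 16.4 to 19.4) and 188 of 1493 at d15 (12.6%, 10.95 to 14.38). Venous-like cells were 151 (5.72%, 4.86 to 6.67) and 67 (4.49%, 3.49 to 5.66), arterial-like cells 61 (2.31%, 1.77 to 2.96) and 52 (3.48%, 2.61 to 4.54), and lymphatic-like cells 55 and 30, too few at d15 to compare levels. The pooled capillary clusters, with Gpihbp1 at 2053 CPM and Plvap at 3774 CPM against 201 and 276 CPM in aerocyte-like cells, held 1775 cells (67.2%) and 1114 cells (74.6%). They join 6 clusters, of which 2 met the naming rule for general capillary cells, and the largest clusters were led by Atf3 and by Cd74 at d0 and by Hmcn1 and by Atf3 at d15. The cluster led by Hmcn1 had a median of 3125 UMIs per cell. A further cluster poor in Malat1, a nuclear RNA, held 128 and 42 cells and was kept out of the classes. When genes past the fold were left out of the clustering, aerocyte-like cells were 17.6% and 12.7%, venous-like cells 5.94% and 4.35%, and arterial-like cells 6.59% and 9.31%. Shares are of sorted cells of unequal depth, and the intervals do not cover the choice of clusters.

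**Figure D4:**
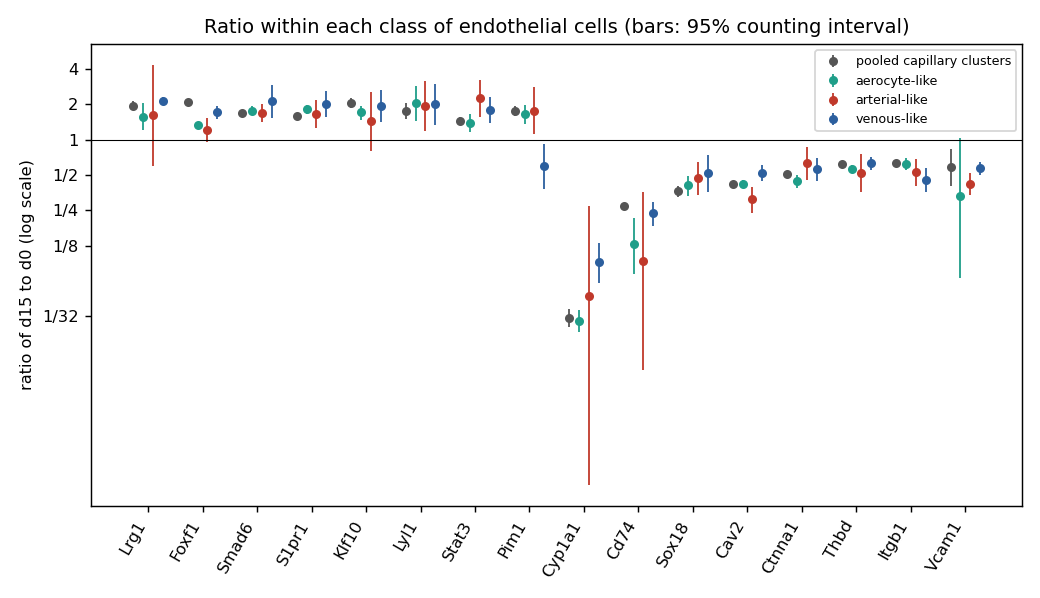
Ratio of d15 to d0 (log scale) of 16 genes within 4 classes of EC, with bars for the 95% counting interval, which runs wide where UMIs are few. Cyp1a1, Cd74, Sox18 and Cav2 lie below 1 in each class and Smad6 and S1pr1 above it, while Pim1 is below 1 in venous-like cells alone.

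Set beside the later days, which share the d0 cells as their reference, the d15 values took several courses. Cyp1a1 was at 1208, 34.7, 57.3 and 51.2 CPM at d0, d15, d22 and d36, so it was low at each day after d0. Thbd had 1094, 656, 580 and 506 CPM. Lrg1 had 136, 278, 103 and 212 CPM, and Foxf1 861, 1537, 884 and 1607 CPM. S1pr1 had 226, 367, 248 and 390 CPM. For these 3 genes d22 lay near d0 or, for Lrg1, below it (ratio 0.757), and d36 lay near d15 in Foxf1 and S1pr1. Cd74 had 992, 307, 2278 and 447 CPM, Sox18 222, 86.3, 309 and 118 CPM and Cav2 1145, 475, 784 and 449 CPM. Depth took the same course, with median UMIs per cell of 7650.5, 4192, 7667 and 3408.5, and its part in these differences was not tested beyond thinning. After thinning to 1300 UMIs, Lrg1, Foxf1, S1pr1, Cd74, Sox18 and Cav2 had d15 ratios of 2.21, 1.80, 1.82, 0.265, 0.358 and 0.468.

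**Figure D5:**
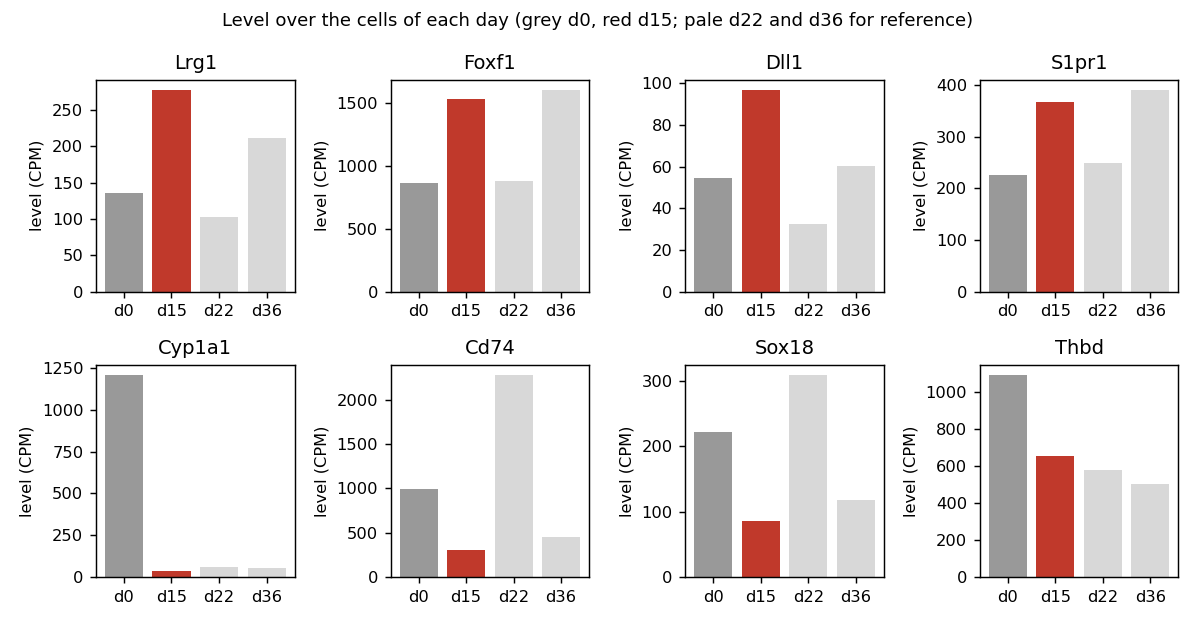
Level in CPM over the EC of each day, 1 pooled sample per day, with d0 in dark grey, d15 in red and d22 and d36 in pale grey. Cyp1a1 is low at each day after d0, and Cd74 is at 307 CPM at d15 and at 2278 CPM at d22.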

How the data were processed

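The deposited table holds counts, whole UMIs per gene and cell, unscaled. Per the submitters' processing notes they were made with Cell Ranger 2.1.1 on mm10, and the sources used here do not state the annotation release or the cell filter. A cell was kept as EC from 300 detected genes upwards, with no more than 10% mitochondrial UMIs, if pan-endothelial markers exceeded each list of other cell types, none of which held 2% of UMIs. This rule was set after the data had been seen and left out 29 cells at d0 and 14 at d15. No doublet caller was run, so doublets may remain. UMIs were summed over the EC of each day and scaled to CPM, and a ratio has an exact binomial interval. Thinning drew 1300 UMIs per cell without replacement (seed 11). List medians use members with at least 10 CPM and 1 CPM added. For classes, 2000 variable genes, 30 principal components, 15 neighbours and Leiden resolution 1 were used on thinned counts (scanpy 1.11.5, leidenalg 0.10.2, igraph 0.11.9). A cluster was named with at least 2 own markers among its 10 leading genes, more than from any other list. TMM factors came from edgeR 4.0.16. The summing and thinning recovered known folds in simulated counts. That was a check of the arithmetic and does not test the genes past the fold, since the spread between animals or libraries is unknown here.

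Genes named are the 15 highest and 15 lowest past the fold in summed and thinned counts, without predicted, mitochondrial, immunoglobulin and ribosomal protein genes and pseudogenes; the 4 members of each list with at least 50 CPM farthest from 1; the members of the STAT3, Notch, BMP and TGF-β, aryl hydrocarbon receptor and MHC class II lists; 3 highest and 3 lowest per class; and a panel of Malat1, Icam1, Vcam1, Selp, Sele, Apln, Tek, Angpt2 and Lrg1. A gene that the rule takes is not reported here. Members, lists and rules were chosen with earlier results of these data known. Of 30 lists, those not described in the text had median log2 ratios of 0.35 (circadian clock), 0.28 (Ly6 family), 0.10 (vasoactive), 0.01 (heat shock), 0.00 (p53 and cell cycle inhibitors), −0.06 (hypoxia and glycolysis), −0.13 (antioxidant), −0.15 (ER chaperones) and −0.21 (chemokines). The mitochondrial genome, tip cell, coagulation and aryl hydrocarbon receptor lists had 0.08, 0.20, −0.14 and 0.08.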

Additional observations from a re-analysis of the deposited data

Results flagged for a closer look

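Of the 186 named genes, 6 were past the fold in opposite directions at d15 and d22, each against the same d0 cells. The difference between the days was not tested. The share over all measured genes is not given, so whether 6 is many cannot be told. Cd74 had a ratio of 0.310 at d15 and 2.30 at d22. The class II chains H2-Aa (0.591 and 1.91), H2-Eb1 (0.632 and 1.99), H2-DMa (0.606 and 1.94) and H2-DMb1 (0.594 and 1.76) took the same course. Dll1, the Notch ligand, went the other way, at 1.77 and 0.592. Median depth per cell was 4192 UMIs at d15 and 7667 at d22, and the thinned d15 ratios were 0.265 for Cd74, 0.521 for H2-Aa and 1.76 for Dll1. Thinned to 2500 UMIs, Dll1 (1.47) and H2-DMb1 (0.685) were short of the fold at d15.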

How the results depend on the processing

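No paired analysis was possible because cell names carry the day and not the library, and for the same reason no library could be left out in turn. Over 8 alternatives, 10 of 186 named genes were counted as reversed and 176 were not. A reversal was counted only where the 95% interval of the main ratio left out 1. Genes whose interval included 1 could cross it uncounted, such as Ahr (0.965 at 2500 UMIs), Arnt (0.814 at 2500 UMIs) and Selp (1.29 at 1300 UMIs). Of the single ratios of named genes, 1154 were counted as the same, 319 as moved out of the main interval and 14 as reversed. The ratios to d0 counted as reversed were those of Ackr1 (0.701 without the 2% of cells with the most UMIs), Bmp4 (0.837 thinned to 1300 UMIs, 0.969 with classes weighted), Ednrb (1.05), Igfbp7 (1.04) and Rela (1.00, all with classes weighted), Hk1 (1.04 at 1300 UMIs), Smad2 (1.05 at 1300 UMIs, 1.14 at 2500), Il4ra (0.997), Smad4 (0.868) and Malat1 (0.898, all at 2500 UMIs, with 0.951 for Malat1 in cells of at least 2500 UMIs and 0.990 with TMM). The cause was not tested. Genes past the fold numbered 234 higher and 148 lower at 1300 UMIs, 580 and 465 with a minimum of 10 CPM, and 42 and 11 at a fold of 2. List medians that moved were proliferation (−0.16 with members of at least 50 CPM), ribosomal proteins (−0.30 at 1300 UMIs, −0.30 with TMM), nuclear oxidative phosphorylation (−0.14 at 1300 UMIs, −0.042 in cells of at least 2500 UMIs, −0.13 with TMM) and the mitochondrial genome (0.23 at 1300 UMIs). Arterial-like cells were 3.52% at d0 and 2.08% at d15 at resolution 2.0, and 6.59% and 9.31% without genes past the fold, an alternative added after seeing the data, so the direction of their share depended on the clustering. They formed no class at resolution 0.5 or with unthinned counts. Venous-like cells were 6.96% and 6.76% at resolution 0.5. Leaving out the Malat1-poor cluster, also added later, moved no count by over 1.5 times. Depth limits rare genes: Ly6c2, with 437 and 454 UMIs, had too few after thinning to be measured.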
